A study of Mus musculus with 26 samples.

Results

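The comparison described here is that of inflamed ear skin given the HSP90 inhibitor RGRN-305 with inflamed ear skin given only the solvent of the drug. It rests on 16 of the 26 libraries of the series: 8 mice with MC903 and RGRN-305 and 8 mice with MC903 and drug-vehicle (called MC903 here), chosen by their labels, with all genes examined. All mice were wild-type females of the albino strain Balb/cAnNRj, 8 weeks old at purchase. The right ear was challenged with 1 nmol of MC903 per day in ethanol for 6 days. RGRN-305 (1 mg per day, topical, in ethanol) or ethanol alone was given for 9 days, so that the ears of the MC903 group also received the solvent of the drug. A further 6 mice received ethanol in place of both compounds (called vehicle here) and show where a gene stood without MC903. The other 4 mice received MC903 and dexamethasone. They enter only the filter on low counts, the scaling of the libraries and the shared estimate of spread. Each library is the total RNA of 1 ear biopsy of 4 mm taken on day 9 from 1 mouse, so epidermis, dermis, fat, muscle and infiltrating cells were read together. There was 1 dose, 1 time point and 1 HSP90 inhibitor. There were no ears with RGRN-305 and without MC903, so an effect of the drug on uninflamed skin cannot be told apart from its effect on the inflammation.

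HSP90 is an abundant cytosolic chaperone that, with co-chaperones such as CDC37, folds and stabilises a large set of client proteins, among them many kinases, steroid receptors and transcription factors. HSP90 also holds the heat shock factor HSF1 in check, and inhibitors of its ATP pocket are known in cultured cells for releasing HSF1, which then raises HSP70 and small heat shock proteins. The endoplasmic reticulum has its own HSP90 (GRP94, the product of Hsp90b1) and its own stress programme, the unfolded protein response. MC903 is calcipotriol, a vitamin D analogue. Applied to mouse ears it acts on keratinocytes through the vitamin D receptor, brings up the cytokine TSLP and is used as a model of atopic dermatitis.

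Total counts per library were 20020975 to 26516232 in RGRN-305 mice, 14311046 to 28036747 in MC903 mice and 13695023 to 35130972 in vehicle mice. Values below are CPM, the count of a gene relative to its library, scaled by TMM factors, and are given for each group as the lowest to the highest mouse with the median. Log2 fold changes (log2FC) are those of RGRN-305 over MC903 unless another pair is named, with the standard error (SE) of the edgeR model. A gene is said to rise or fall only at a Benjamini-Hochberg adjusted p below 0.05 of edgeR's quasi-likelihood test, and DEGs also have an absolute log2 fold change above 1.5. Markers of keratinocytes summed to 46383 to 60086 CPM in RGRN-305 mice, 51685 to 65868 CPM in MC903 mice and 30607 to 38068 CPM in vehicle mice, so every library carried the defining transcripts of skin. Cyp24a1, the vitamin D-degrading enzyme and a direct target of the vitamin D receptor, was at 1594 to 2537 CPM (median 1787) in RGRN-305 mice, 1973 to 2780 CPM (median 2123) in MC903 mice and 0 to 0.687 CPM (median 0) in vehicle mice. Every challenged ear thus carried the mark of MC903, and RGRN-305 against MC903 did not pass the test (log2FC -0.19, edgeR adjusted p = 0.459). Mitochondrial genes took 2.60% to 2.89% of the counts in RGRN-305 mice, 2.03% to 2.75% in MC903 mice and 2.90% to 3.24% in vehicle mice. Genes of ribosomal RNA type took 0.699% to 1.16%, 0.333% to 0.822% and 0.318% to 0.548% of the counts in the same order of groups, and the part of these shares in the results was not tested. MC903 mouse 7 had the fewest counts of its group and yet the most genes detected (28185, against 25537 to 27392 in the other MC903 mice). MC903 mouse 7 also stood apart in several genes named below. Without it 3319 genes passed the test upward and 3556 downward, with 128 and 540 DEGs. Nothing in the labels ties a mouse to a cage, day or batch.

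Of the 20167 genes tested, 3745 (18.6%) rose and 3905 (19.4%) fell with RGRN-305. DEGs were less even in direction, with 113 higher (0.56% of the genes tested) and 629 lower (3.12%). Among the genes that rose the median log2 fold change was 0.43, and among those that fell it was -0.59. A log2 change beyond 1 was reached by 398 of the genes that rose (10.6%) and by 1181 of the genes that fell (30.2%), and 78 genes fell by more than 3 on that scale. In 719 genes (3.57%) all 8 RGRN-305 mice were above all 8 MC903 mice, and in 1447 genes (7.18%) all were below. The median log2 fold change over all genes tested was 0.03, against which the medians of the gene lists below can be read. In bulk tissue, fewer cells of a type and less RNA per cell cannot be told apart, and this holds for every gene below.

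The direction of the change that MC903 itself made was set beside each value. Both comparisons use the same 8 MC903 mice, so an error in those mice pushes the values in opposite directions and the counts are given as a description. Among all genes tested, 34.5% passed upward and 35.7% downward in MC903 against vehicle ears, and in RGRN-305 against vehicle ears 30.3% passed upward and 29.5% downward. Of the 3745 genes that rose with RGRN-305, 2743 (73.2%) were lower in MC903 than in vehicle ears, 297 (7.93%) were higher in MC903 than in vehicle ears and 705 (18.8%) did not pass the test there. Of the 3905 genes that fell, 3232 (82.8%) were higher in MC903 than in vehicle ears, 186 (4.76%) were lower there and 487 (12.5%) did not pass. Genes that moved back towards vehicle mostly stopped short of it: of the 3232, 2001 were still above their vehicle level with RGRN-305, 1148 did not pass the test against vehicle and 83 were below it. Of the 2743, 1589 were still below vehicle, 1095 did not pass and 59 were above. The changes away from vehicle were smaller, with a median of 0.30 for the 297 genes higher in both comparisons and -0.36 for the 186 lower in both, against 0.48 and -0.66 for the genes that moved back.

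Promoters of heat shock, endoplasmic reticulum and interferon genes are shown first, because heat shock genes rose in part under the drug while the endoplasmic reticulum and interferon genes fell, and each of the 3 groups has a known short control sequence. They are the 150 bases before the start of the canonical GENCODE transcript, 5′ to 3′ on the strand of the gene, in GRCm39, and the capitals mark the letters that match the motif. In Hspa1b (chr17:35178215-35178364, minus strand) and Hspb1 (chr5:135916610-135916759, plus strand) the capitals are paired units of a heat shock element, TTCNNGAA or GAANNTTC.
Hspa1b: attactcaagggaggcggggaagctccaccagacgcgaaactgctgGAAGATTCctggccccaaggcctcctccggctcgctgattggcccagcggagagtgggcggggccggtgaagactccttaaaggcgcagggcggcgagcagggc
Hspb1: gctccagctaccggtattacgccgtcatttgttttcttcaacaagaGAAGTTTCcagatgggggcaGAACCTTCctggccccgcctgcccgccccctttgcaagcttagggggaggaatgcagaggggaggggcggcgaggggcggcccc
In Hspa5 (chr2:34661954-34662103, plus strand), Pdia6 (chr12:17316383-17316532, plus strand) and Creld2 (chr15:88703663-88703812, plus strand) they are the endoplasmic reticulum stress element, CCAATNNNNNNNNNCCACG, which stands on the opposite strand in Creld2.
Hspa5: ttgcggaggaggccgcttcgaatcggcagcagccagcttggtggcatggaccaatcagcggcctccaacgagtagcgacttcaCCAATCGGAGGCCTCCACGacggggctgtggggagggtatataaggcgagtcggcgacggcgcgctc
Pdia6: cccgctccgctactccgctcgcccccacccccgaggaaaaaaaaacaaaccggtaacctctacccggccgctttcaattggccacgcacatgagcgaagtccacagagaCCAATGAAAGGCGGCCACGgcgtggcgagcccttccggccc
Creld2: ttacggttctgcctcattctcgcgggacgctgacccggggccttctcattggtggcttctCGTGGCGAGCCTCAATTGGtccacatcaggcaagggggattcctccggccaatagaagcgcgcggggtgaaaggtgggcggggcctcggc
In Rsad2 (chr12:26506452-26506601, minus strand) and Isg15 (chr4:156285304-156285453, minus strand) they are the core of an interferon-stimulated response element, GAAANNGAAA, on the opposite strand in Rsad2 and as 3 overlapping copies in Isg15.
Rsad2: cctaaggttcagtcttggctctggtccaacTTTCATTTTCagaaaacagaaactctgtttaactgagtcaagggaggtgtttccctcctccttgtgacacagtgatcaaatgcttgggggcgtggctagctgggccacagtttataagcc
Isg15: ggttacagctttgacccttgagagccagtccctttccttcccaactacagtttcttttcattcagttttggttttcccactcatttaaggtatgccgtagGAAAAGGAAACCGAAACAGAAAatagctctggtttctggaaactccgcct

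The motifs were looked for on both strands in the 300 bases from 250 before to 50 after the start of 15422 tested protein-coding genes. A heat shock element unit, which is short and loosely defined, was in 1973 of these promoters (12.793%), in 7 of the 22 genes of the HSP70 and J-domain list and in 3 of the 8 genes of the small heat shock protein list. The endoplasmic reticulum stress element was in 17 promoters in all (0.11%), and 7 of the 20 genes of the unfolded protein response list held it: Hspa5, Hsp90b1, Pdia6, Calr, Canx, Dnajc3 and Creld2. The interferon element was in 570 promoters (3.696%), in 18 of the 30 listed genes induced by type I interferon and in 9 of the 16 guanylate-binding proteins and immunity-related GTPases. A match is a stretch of letters and not a proven binding site. Of the 7 holders of a unit in the HSP70 and J-domain list, Hspa1a, Hspa1b, Hspa4l and Dnajb4 rose. The others, Dnaja1, Dnajb1 and Hsph1, did not pass the test. Dnaja4, Hspa8 and Hspa1l rose with no unit in the 300 bases. Whether the unit had a part in the response was not tested.

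The heat shock genes gave a small and selective rise. Hspa1a, which encodes inducible HSP70 (chr17:35188166-35191132, minus strand), was at 122 to 177 CPM (median 165) with RGRN-305, against 70.1 to 114 CPM (median 95.4) with MC903 alone and 94.4 to 121 CPM (median 102) with vehicle (log2FC 0.72 ± 0.09 (SE), edgeR adjusted p = 6.86e-07). Its near-identical neighbour Hspa1b was at 393 to 550 CPM (median 496) with RGRN-305, 261 to 380 CPM (median 354) with MC903 and 300 to 391 CPM (median 340) with vehicle (log2FC 0.50 ± 0.08 (SE), edgeR adjusted p = 1.51e-05). In both genes all RGRN-305 mice were above all MC903 mice, and since reads that fit both copies were left out by the counting, the levels of each are uncertain while their direction was shared. Hspb1, which encodes the small heat shock protein HSP27 (chr5:135916760-135918417, plus strand), was at 146 to 219 CPM (median 185), against 73.8 to 115 CPM (median 101) with MC903 and 181 to 206 CPM (median 198) with vehicle (log2FC 0.91 ± 0.08 (SE), edgeR adjusted p = 5.3e-09). Dnaja4, a J-domain partner of HSP70, was at 52.9 to 77.8 CPM (median 67.1), against 34.5 to 46.8 CPM (median 43) with MC903 and 60.2 to 78.2 CPM (median 67.9) with vehicle (log2FC 0.70 ± 0.09 (SE), edgeR adjusted p = 4.12e-07). These genes differ in where this left them. Hspa1a ended above its vehicle level (log2 fold change of RGRN-305 over vehicle 0.56, edgeR adjusted p = 2.7e-05), while for Hspb1 the test against vehicle was not passed (-0.10, edgeR adjusted p = 0.362), MC903 having lowered it.

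Of the 22 tested members of the list of inducible HSP70, HSP110 and J-domain chaperones, 7 rose, 4 fell and the median was 0.02. Of all genes tested 18.6% rose and 19.4% fell. Besides Hspa1a, Hspa1b and Dnaja4 those that rose were the constitutive HSP70 Hspa8 (log2FC 0.51), the J-domain gene Dnajb4 (log2FC 0.42) and the scarce Hspa1l (log2FC 1.10), with Hspa4l (log2FC 0.18) the smallest. The 4 that fell were Hspa2 (log2FC -0.66), Dnajb6 (log2FC -0.44), Dnajc3 of the endoplasmic reticulum (log2FC -0.42) and Hspa4 (log2FC -0.17). Dnajb1, the J-domain protein usually read as a marker of HSF1 activity, was at 128 to 166 CPM (median 154), against 145 to 163 CPM (median 150) with MC903 and 87 to 112 CPM (median 102) with vehicle (log2FC 0.004, edgeR adjusted p = 0.957). The drug and MC903 mice thus shared 1 range, above that of vehicle. Hsph1, which encodes HSP110, was at 24.2 to 63.7 CPM (median 47.7), against 41.7 to 62.4 CPM (median 44.3) with MC903 and 20.1 to 24.4 CPM (median 22.1) with vehicle (log2FC -0.05, edgeR adjusted p = 0.799). Of the 8 small heat shock proteins and BAG3, 5 rose and the median was 0.77. Besides Hspb1 these were Cryab (log2FC 0.75), Hspb6 (log2FC 0.79), Hspb7 (log2FC 0.78) and Hspb2 (log2FC 0.59), which muscle expresses strongly, and the skeletal muscle markers moved the same way (below). The part of muscle content in the rise of these 4 genes was not tested. Bag3, another usual target of HSF1, went the other way by a small step (log2FC -0.15, edgeR adjusted p = 0.0483). It no longer passed without RGRN-305 mouse 1, 3, 4, 6 or 8 or without MC903 mouse 1, 3, 5, 7 or 8 (edgeR adjusted p = 0.0522 to 0.125).

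The genes of the HSP90 machinery itself moved little. Hsp90ab1, the constitutive cytosolic form, was at 1552 to 1865 CPM (median 1658), against 1300 to 1436 CPM (median 1386) with MC903 and 1022 to 1110 CPM (median 1071) with vehicle (log2FC 0.31 ± 0.05 (SE), edgeR adjusted p = 2.11e-05). The drug and MC903 mice did not overlap in it. Hsp90aa1, the inducible form, was at 62.3 to 149 CPM (median 95), against 83.7 to 143 CPM (median 92.9) with MC903 and 54.3 to 83.3 CPM (median 61.9) with vehicle (log2FC -0.06, edgeR adjusted p = 0.759), and its spread was wide in both groups. The co-chaperones Fkbp4 (log2FC 0.36), which serves steroid receptors, and Cdc37 (log2FC 0.27), which brings kinases to HSP90, rose. In all, 7 of 28 members of the HSP90 and co-chaperone list rose, 3 fell (5 without RGRN-305 mouse 2) and the median was 0.05. Over all genes tested 18.6% rose, 19.4% fell and the median was 0.03. Hsf1 did not pass the test (log2FC 0.15, edgeR adjusted p = 0.15).

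**Figure D1:**
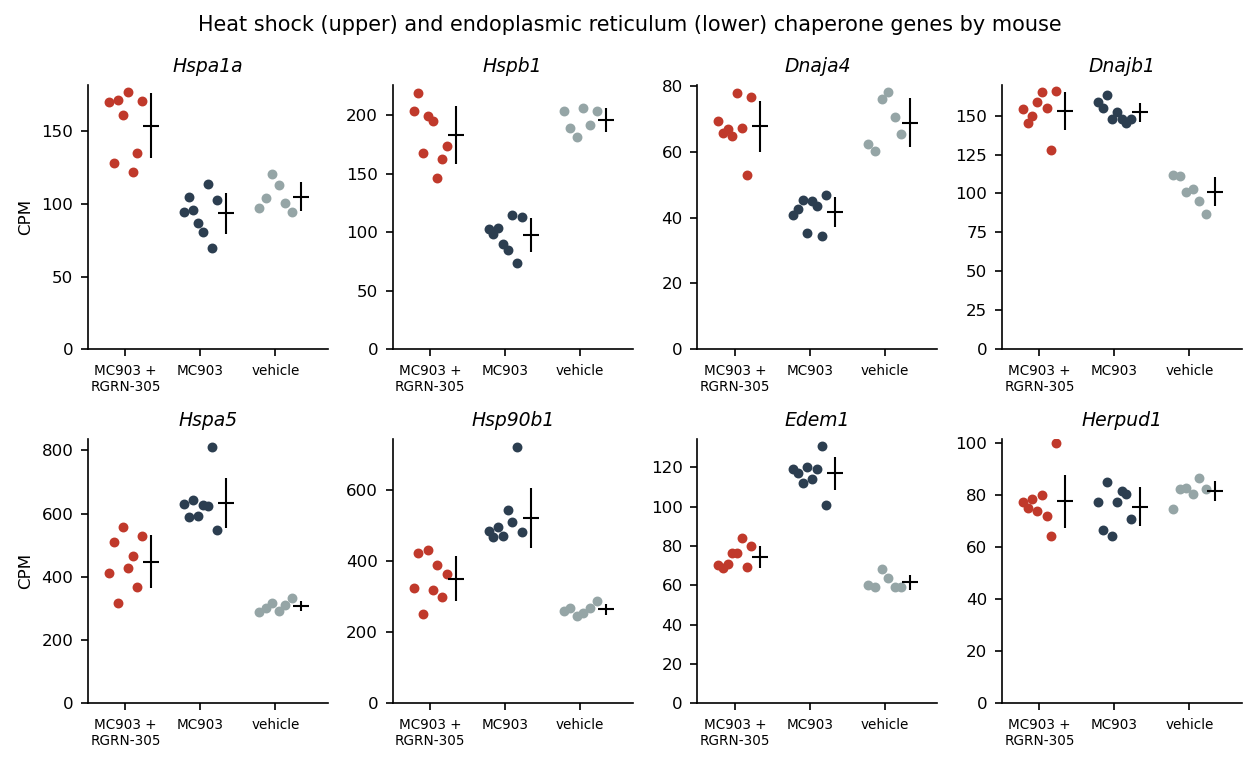
Heat shock genes (upper row) and genes of the endoplasmic reticulum stress response (lower row) in each mouse, as CPM from 0, with 8 RGRN-305, 8 MC903 and 6 vehicle mice from left to right. Points are mice and the cross beside them is the mean ± SD. Hspa1a, Hspb1 and Dnaja4 are higher in every RGRN-305 mouse than in any MC903 mouse and Dnajb1 is not, while Hspa5, Hsp90b1 and Edem1 are lower and Herpud1 is level.

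Genes of the unfolded protein response in the endoplasmic reticulum mostly fell. Of the 20 members of the unfolded protein response list, 18 fell, none rose and the median was -0.49, and 17 of the 20 had been higher in MC903 than in vehicle ears. Edem1, which directs misfolded glycoproteins to degradation, was at 68.8 to 83.9 CPM (median 73.4), against 101 to 131 CPM (median 118) with MC903 and 58.9 to 68.4 CPM (median 59.7) with vehicle (log2FC -0.65 ± 0.06 (SE), edgeR adjusted p = 5.08e-09). Pdia4, a disulfide isomerase, was at 59 to 97.3 CPM (median 74.9), against 103 to 149 CPM (median 127) with MC903 and 52.8 to 67 CPM (median 55.8) with vehicle (log2FC -0.74 ± 0.10 (SE), edgeR adjusted p = 1.21e-06). Manf, a secreted stress-induced factor of the reticulum, was at 83.1 to 144 CPM (median 112), against 159 to 248 CPM (median 165) with MC903 and 66.2 to 89.5 CPM (median 76.8) with vehicle (log2FC -0.68 ± 0.12 (SE), edgeR adjusted p = 3e-05). In these 3 genes, as in 9 of the 20, no RGRN-305 mouse reached any MC903 mouse. Hspa5, which encodes the master chaperone BiP, was at 317 to 556 CPM (median 447), against 549 to 811 CPM (median 626) with MC903 and 289 to 334 CPM (median 306) with vehicle (log2FC -0.50 ± 0.10 (SE), edgeR adjusted p = 0.000129). Hsp90b1, the HSP90 of the reticulum, was at 250 to 432 CPM (median 343), against 469 to 721 CPM (median 491) with MC903 and 245 to 288 CPM (median 264) with vehicle (log2FC -0.58 ± 0.10 (SE), edgeR adjusted p = 4e-05). MC903 mouse 7 was the highest in both (811 and 721 CPM), and both calls were kept without it. The other genes shown by their promoters fell too, Pdia6 by 0.56 and Creld2 by 0.61 on the log2 scale. The 2 members that did not pass were Herpud1 and Ern1. Herpud1, a membrane protein of the reticulum, was at 64.4 to 100 CPM (median 76.1), against 64.4 to 85.2 CPM (median 77.4) with MC903 and 74.7 to 86.6 CPM (median 82.4) with vehicle (log2FC 0.04, edgeR adjusted p = 0.676). Ern1, the sensor IRE1, missed the threshold (log2FC -0.18, edgeR adjusted p = 0.0586) and passed without RGRN-305 mouse 3 or 7 (edgeR adjusted p = 0.0374 and 0.0214). Of the 19 members of the integrated stress response list 10 fell and 2 rose (median -0.26), and of 26 proteasome subunits 11 fell and none rose (median -0.14), with 7 lower without MC903 mouse 5.

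Among DEGs without overlap that averaged 2 log2 CPM or more in 1 of the groups, the 15 largest falls were of a few kinds. Interferon-induced genes were the most frequent: Rsad2, Mx1, Ifit1bl1, Ifi44, Slfn4 and Oas3. Mx1, an antiviral GTPase, was at 2.8 to 19.3 CPM (median 8.86) with RGRN-305, against 92.7 to 348 CPM (median 153) with MC903 and 0.865 to 1.43 CPM (median 0.916) with vehicle (log2FC -4.29 ± 0.56 (SE), edgeR adjusted p = 3.14e-06). Isg15, a ubiquitin-like modifier, was at 13.4 to 65.5 CPM (median 31.6), against 234 to 349 CPM (median 297) with MC903 and 1.5 to 6.24 CPM (median 1.92) with vehicle (log2FC -3.02 ± 0.45 (SE), edgeR adjusted p = 1.43e-05). Isg15 is not among the 15 and was chosen after its values were seen. The residual levels of Mx1 and Isg15 differed widely between drug mice and stayed above every vehicle mouse. Acute-phase and inflamed-epidermis genes followed. Saa3, an acute-phase serum amyloid, was at 0.249 to 3.57 CPM (median 1.18), against 8.64 to 47 CPM (median 16.3) with MC903 and 0 to 0.0362 CPM (median 0) with vehicle (log2FC -4.02 ± 0.48 (SE), edgeR adjusted p = 9.58e-07). Stfa2, a stefin protease inhibitor of inflammatory cells, was at 1.78 to 29.1 CPM (median 7.75), against 70.5 to 406 CPM (median 142) with MC903 and 0 to 0.186 CPM (median 0.0543) with vehicle (log2FC -4.19 ± 0.52 (SE), edgeR adjusted p = 1.52e-06). Has3, the hyaluronan synthase of stimulated keratinocytes, was at 2.72 to 13.4 CPM (median 5.6), against 49.5 to 143 CPM (median 83.6) with MC903 and 0.636 to 1.82 CPM (median 0.926) with vehicle (log2FC -3.80 ± 0.43 (SE), edgeR adjusted p = 4.86e-07). Absence of overlap was a condition for naming these 15 genes and is no result about them.

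The lists of immune and interferon genes had shares of lower members far above the 19.4% of all genes. All 30 listed genes induced by type I interferon fell (median -2.86), as did all 16 guanylate-binding proteins and immunity-related GTPases (-1.95) and all 17 genes of MHC class I and the immunoproteasome (-1.63). Of the markers of immune cells, 18 of 20 for T cells fell (-1.38), 13 of 14 for NK and cytotoxic cells (-2.51), 15 of 16 for monocytes and macrophages (-1.14) and 8 of 11 for neutrophils (-1.34). Summed over the list, T cell markers were 166 to 190 CPM with RGRN-305, 221 to 281 CPM with MC903 and 111 to 148 CPM with vehicle. Neutrophil markers were 53.6 to 256 CPM, against 327 to 1634 CPM with MC903 and 22 to 26 CPM with vehicle. Dendritic and Langerhans cell markers fell in 11 of 15 (median -0.59). The members with the smallest p were, for the interferon list, Ifi27l2a (log2FC -1.97), Ifit2 (log2FC -2.54), Trim30a (log2FC -2.38) and Slfn5 (log2FC -1.72). For T cells they were the receptor chain Trbc1 (log2FC -1.59), Cd2 (log2FC -1.81), Lck (log2FC -1.49) and Cd28 (log2FC -1.15). For macrophages they were Ms4a7 (log2FC -1.88), the lysosomal Cd68 (log2FC -0.95), complement C1qc (log2FC -0.95) and Adgre1 (log2FC -1.09), which encodes F4/80. MHC class II, by which such cells present antigen, fell in 11 of 13 (median -0.71), among them H2-Aa (log2FC -0.78).

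Of 13 mast cell and basophil markers 5 fell, 1 rose and 7 did not pass the test (median -0.19). Among all genes 19.4% fell and 18.6% rose. The members named here split. Prss34, a protease of basophils, was at 0 to 0.172 CPM (median 0.0234), against 0.853 to 5.26 CPM (median 1.54) with MC903, and all vehicle mice were at 0 (log2FC -5.61 ± 0.63 (SE), edgeR adjusted p = 4.19e-07). Mcpt8, also a basophil protease, was at 2.32 to 13.1 CPM (median 5.06), against 13.2 to 30.2 CPM (median 19.4) with MC903 and 0 to 0.149 CPM (median 0.0127) with vehicle (log2FC -1.80 ± 0.43 (SE), edgeR adjusted p = 0.00217). The proteases of resident connective tissue mast cells did not pass the test. Mcpt4 was at 32.6 to 43.1 CPM (median 37.2), against 24.4 to 51.8 CPM (median 31.1) with MC903 and 40.6 to 76 CPM (median 55.4) with vehicle (log2FC 0.21, edgeR adjusted p = 0.216). Cma1 was at 22.9 to 31 CPM (median 27.6), against 20.8 to 37.8 CPM (median 24.3) with MC903 and 25.7 to 39.3 CPM (median 33.6) with vehicle (log2FC 0.08, edgeR adjusted p = 0.591). Both had been lower in MC903 than in vehicle ears, and Mcpt4 passed the test upward without MC903 mouse 8 (edgeR adjusted p = 0.0196). Mrgprb2, a mast cell receptor for peptides, was scarce and rose (log2FC 1.40, edgeR adjusted p = 0.00113).

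The RNA of glycolysis and hypoxia genes was mostly lowered, and metabolism itself was not measured. Of 24 glycolysis and hypoxia genes, 21 fell, 1 rose and the median was -0.66. Pfkfb4, which sets the level of the glycolytic activator fructose-2,6-bisphosphate, was at 36.9 to 44.2 CPM (median 41.4), against 51.6 to 85.8 CPM (median 76.5) with MC903 and 19.6 to 23.6 CPM (median 20.3) with vehicle (log2FC -0.84 ± 0.08 (SE), edgeR adjusted p = 6.3e-09). Slc2a1, the glucose transporter GLUT1 of proliferating keratinocytes, was at 61.8 to 86.2 CPM (median 64.5), against 84.9 to 179 CPM (median 142) with MC903 and 57 to 72.8 CPM (median 63.7) with vehicle (log2FC -1.04 ± 0.12 (SE), edgeR adjusted p = 1.59e-07). Hk2, an inducible hexokinase, was at 57.1 to 95.5 CPM (median 68.4), against 92.1 to 168 CPM (median 140) with MC903 and 43.6 to 67.5 CPM (median 63) with vehicle (log2FC -0.95 ± 0.11 (SE), edgeR adjusted p = 3.16e-07). With the drug Slc2a1 and Hk2 overlapped the range of vehicle ears, and Pfkfb4 was above it in every mouse. Hif1a, the hypoxia-inducible factor and a client of HSP90, was at 131 to 204 CPM (median 144), against 197 to 309 CPM (median 233) with MC903 and 67.5 to 83.3 CPM (median 80.1) with vehicle (log2FC -0.58 ± 0.10 (SE), edgeR adjusted p = 4.09e-05). Vegfa, the main growth factor of blood vessels, fell below a vehicle level that MC903 had not changed past the test, at 12.6 to 20.1 CPM (median 16.4) against 18 to 40.3 CPM (median 29.6) with MC903 and 27.5 to 43.3 CPM (median 35) with vehicle (log2FC -0.87 ± 0.12 (SE), edgeR adjusted p = 2.71e-06). Adm, the vasodilator adrenomedullin and another hypoxia target, was the single member that rose (log2FC 0.44, edgeR adjusted p = 0.00455). The counts of Gapdh, Pgk1 and Eno1 are uncertain, because their processed copies in the genome take up reads that fit more than 1 place.

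JAK kinases, STAT factors and SOCS inhibitors carry cytokine signals, and several are clients of HSP90 as proteins, which RNA does not show. Of 21 members 11 fell, 2 rose and the median was -0.46, with 9 falling without overlap. Jak2 was at 45.7 to 79.9 CPM (median 51.1), against 98.8 to 154 CPM (median 112) with MC903 and 36.7 to 46.7 CPM (median 45.7) with vehicle (log2FC -1.07 ± 0.12 (SE), edgeR adjusted p = 9.96e-08). Stat3 was at 198 to 293 CPM (median 243), against 299 to 386 CPM (median 359) with MC903 and 137 to 168 CPM (median 151) with vehicle (log2FC -0.55 ± 0.08 (SE), edgeR adjusted p = 7.02e-06). Of the SOCS inhibitors, Socs1 fell by 1.59, Socs3 by 1.18, Socs2 by 0.84 and Socs6 by 0.59 on the log2 scale. Jak1 (log2FC 0.08, edgeR adjusted p = 0.227), Tyk2 (log2FC -0.006, edgeR adjusted p = 0.962) and Stat6 (log2FC -0.07, edgeR adjusted p = 0.361), the last being the factor of IL-4 and IL-13 signalling, did not pass the test. Among 30 genes for known HSP90 clients, 10 fell, 6 rose and the median was -0.01. Over all genes tested 19.4% fell, 18.6% rose and the median was 0.03. The falls included Ripk3 (log2FC -1.01) of necroptosis and the T cell kinase Lck (log2FC -1.49). Lck is also 1 of the T cell markers, of which 18 of 20 fell.

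**Figure D2:**
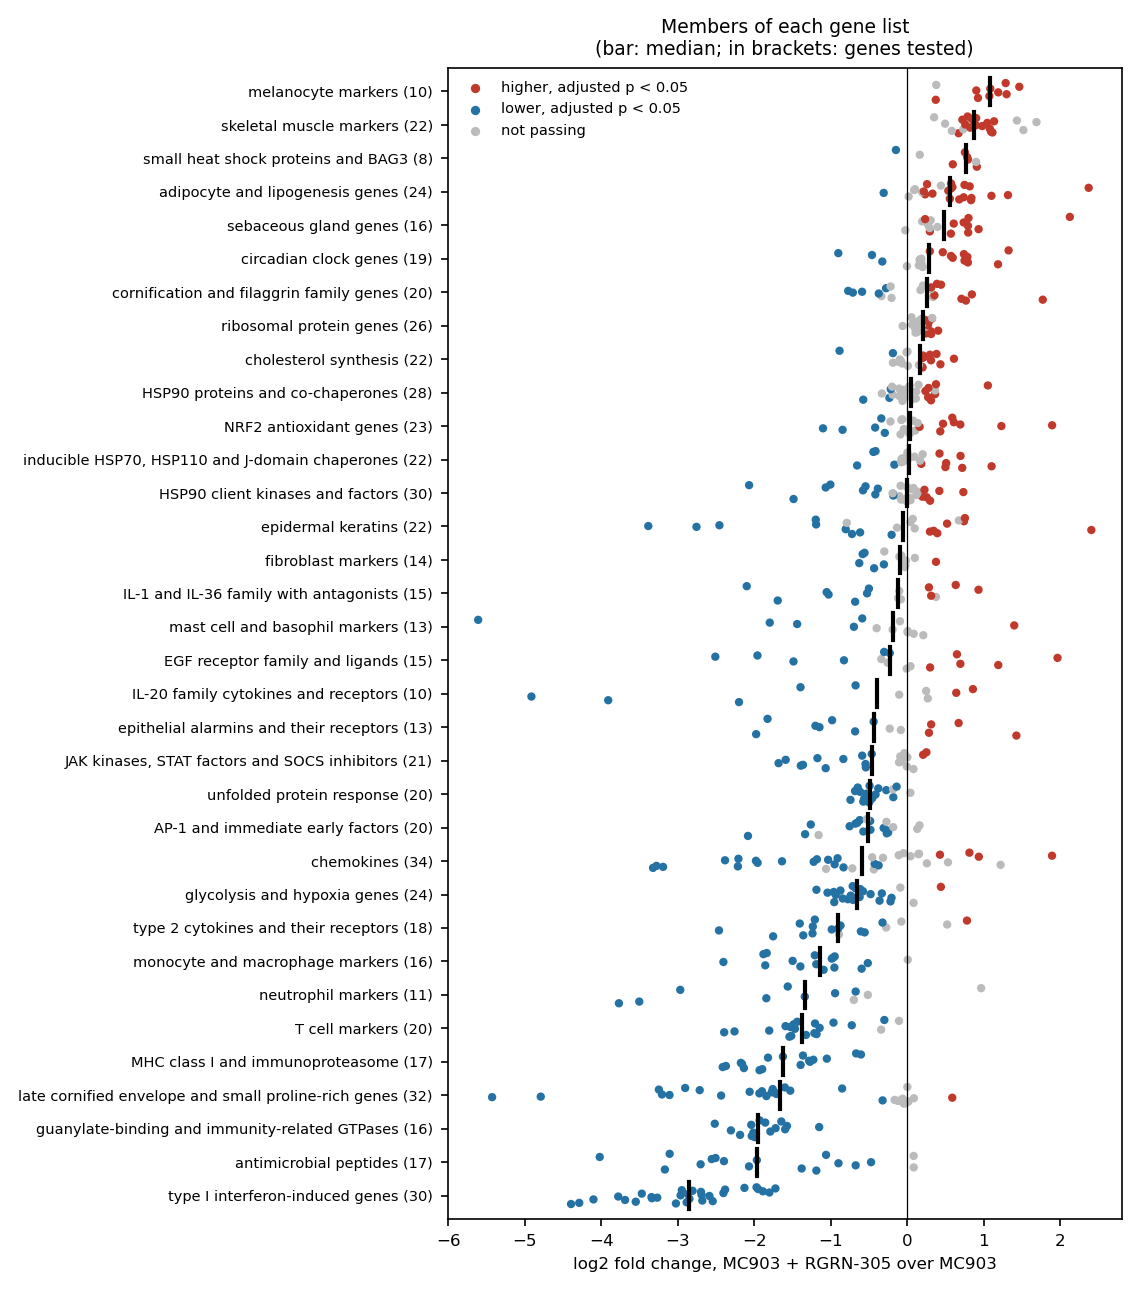
Log2 fold change of RGRN-305 over MC903 for every tested member of 34 gene lists, ordered by the median (black bar). Red points rose, blue points fell and grey points did not pass the test, and the number of genes tested is in brackets. Melanocyte markers (median 1.08) have the highest median of the 34 lists and genes induced by type I interferon (median -2.86) the lowest.

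Ligands of the EGF receptor family, which drive keratinocyte growth, split in direction. Hbegf was at 4.78 to 9.52 CPM (median 5.63), against 15.6 to 81.5 CPM (median 32.5) with MC903 and 4.63 to 6.49 CPM (median 5.4) with vehicle (log2FC -2.51 ± 0.33 (SE), edgeR adjusted p = 2.87e-06). Nrg1 was at 1.31 to 4.58 CPM (median 2.18), against 5.81 to 18.7 CPM (median 7.39) with MC903 and 0.434 to 1.07 CPM (median 0.882) with vehicle (log2FC -1.96 ± 0.27 (SE), edgeR adjusted p = 2.64e-06). Both were lower in all drug mice than in any MC903 mouse, and for Hbegf the median came back to that of vehicle. Areg, a ligand with a part in type 2 inflammation and wound healing, was at 4.03 to 10.7 CPM (median 6.83), against 8.96 to 38.6 CPM (median 16.9) with MC903 and 0.0662 to 0.391 CPM (median 0.115) with vehicle (log2FC -1.49 ± 0.26 (SE), edgeR adjusted p = 7.26e-05). Ereg was at 13.7 to 22.9 CPM (median 17.2), against 25.1 to 41.5 CPM (median 31.3) with MC903 and 15.6 to 18.1 CPM (median 16.6) with vehicle (log2FC -0.83 ± 0.11 (SE), edgeR adjusted p = 1.22e-06). Betacellulin (Btc, chr5:91505120-91550883, minus strand), which binds the same receptor, rose instead, at 4.33 to 10.1 CPM (median 8.47) against 1.41 to 2.72 CPM (median 1.9) with MC903 and 1.53 to 3.83 CPM (median 2.51) with vehicle (log2FC 1.96 ± 0.19 (SE), edgeR adjusted p = 1.23e-08). This put Btc above its vehicle level in every drug mouse, while MC903 alone had not changed it past the test. Nrg4 (log2FC 0.65) and Egf (log2FC 0.69) also rose, and the receptor Egfr did not pass (log2FC -0.008, edgeR adjusted p = 0.94).

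The AP-1 and immediate early factors, which act below such receptors, fell in 14 of 20 with none higher (median -0.51). Fos was at 7.01 to 23.7 CPM (median 12.1), against 23.5 to 133 CPM (median 40.1) with MC903 and 2.65 to 11.8 CPM (median 6.12) with vehicle (log2FC -2.08 ± 0.36 (SE), edgeR adjusted p = 8.54e-05). Junb (log2FC -0.57), Maff (log2FC -0.68) and Ier3 (log2FC -0.75) had smaller falls. None of the 20 was free of overlap between the drug and MC903 mice.

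Cytokine genes of the epithelium did not move as one. Il33, an alarmin released from damaged epithelium (chr19:29902483-29938933, plus strand), was at 31.8 to 99.6 CPM (median 52.9), against 138 to 345 CPM (median 213) with MC903 and 52.8 to 74.5 CPM (median 61.5) with vehicle (log2FC -1.98 ± 0.24 (SE), edgeR adjusted p = 8.78e-07). Its receptor gene Il1rl1 was at 3.68 to 6.96 CPM (median 4.08), against 8.21 to 13.5 CPM (median 10.3) with MC903 and 2.48 to 6.04 CPM (median 3.77) with vehicle (log2FC -1.20 ± 0.16 (SE), edgeR adjusted p = 8.78e-07). Il7r, which encodes a chain shared by the receptors for IL-7 and TSLP, was at 4.92 to 9.28 CPM (median 6.64), against 11.6 to 19.3 CPM (median 15.1) with MC903 and 6.18 to 10.3 CPM (median 7.79) with vehicle (log2FC -1.15 ± 0.14 (SE), edgeR adjusted p = 3.27e-07). With the drug all 3 were in or near the vehicle range. Il36g, a keratinocyte cytokine, fell by 1.05 on the log2 scale. Il19, of the IL-20 family, was at 0.919 to 14.9 CPM (median 2.17), against 26.1 to 119 CPM (median 52.2) with MC903 and 0 to 0.0744 CPM (median 0) with vehicle (log2FC -3.91 ± 0.59 (SE), edgeR adjusted p = 1.56e-05). Of 13 alarmins and receptors 7 fell and 4 rose (median -0.44). Of 15 genes of the IL-1 and IL-36 family 7 fell and 4 rose (-0.12) and of 18 type 2 cytokines and receptors 13 fell and 1 rose (-0.90). The riser of the type 2 list was Ccr4, a receptor of Th2 and skin-homing T cells, at 5.62 to 10.5 CPM (median 7.28) against 2.46 to 6.22 CPM (median 4.39) with MC903 and 5.28 to 7.99 CPM (median 7.28) with vehicle (log2FC 0.78 ± 0.15 (SE), edgeR adjusted p = 0.000103). Il1f10, the anti-inflammatory IL-38, rose as well, at 5.52 to 9.9 CPM (median 7.62) against 1.93 to 4.53 CPM (median 4.23) with MC903 and 13.1 to 19 CPM (median 15.8) with vehicle (log2FC 0.93 ± 0.14 (SE), edgeR adjusted p = 4.23e-06).

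Of 34 chemokines 17 fell and 4 rose (median -0.59). The 3 with the smallest p among those that fell attract different cells. Cxcl11, a ligand of CXCR3 on Th1 and cytotoxic cells, was at 1.99 to 18 CPM (median 3.64), against 37.4 to 81.2 CPM (median 55.9) with MC903 and 0.0509 to 0.409 CPM (median 0.102) with vehicle (log2FC -3.28 ± 0.48 (SE), edgeR adjusted p = 1.23e-05). Ccl8, which in mice binds CCR8, was at 41 to 113 CPM (median 63.1), against 199 to 514 CPM (median 263) with MC903 and 12.7 to 20.6 CPM (median 15.2) with vehicle (log2FC -2.21 ± 0.35 (SE), edgeR adjusted p = 3.04e-05). Cxcl5, a neutrophil attractant of epithelium, was at 0.746 to 14.2 CPM (median 1.87), against 16.1 to 87 CPM (median 27.6) with MC903 and 0 to 0.079 CPM (median 0.0367) with vehicle (log2FC -3.32 ± 0.54 (SE), edgeR adjusted p = 3.85e-05). All 3 fell without overlap. The 4 that rose are Ccl20, Ccl17, Ccl22 and Ccl28, of which the first 3 are described with the genes against the trend. Ccl28, an epithelial chemokine, was at 0.891 to 3.58 CPM (median 2.11), against 0.752 to 1.63 CPM (median 1.14) with MC903 and 1.69 to 4.1 CPM (median 2.86) with vehicle (log2FC 0.81, edgeR adjusted p = 0.0118).

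Epidermal genes separated by the stage and stress they mark. Of 32 late cornified envelope and small proline-rich genes 20 fell and 1 rose (median -1.66), and the Lce3 and Sprr2 members fell while most of the Lce1 members did not pass the test. Reads of near-identical Sprr2a copies cannot be assigned well, and their separate counts are uncertain. Krt16, a keratin of stressed and wounded epidermis, was at 431 to 2402 CPM (median 1029), against 4018 to 10397 CPM (median 6211) with MC903 and 15.8 to 34 CPM (median 26) with vehicle (log2FC -2.46 ± 0.32 (SE), edgeR adjusted p = 2.43e-06). Krt6a, its partner, was at 201 to 1462 CPM (median 477), against 1665 to 7295 CPM (median 3537) with MC903 and 56.4 to 70 CPM (median 65.4) with vehicle (log2FC -2.76 ± 0.39 (SE), edgeR adjusted p = 7.91e-06). Both remained above vehicle in every drug mouse. Krt14 of the basal layer (log2FC -0.72) and Krt1 of the layers above (log2FC -0.62) fell less, and the transglutaminases that cross-link the cornified envelope, Tgm1 (log2FC -0.71) and Tgm5 (log2FC -0.77), fell without overlap. Of 22 epidermal keratins 9 fell, 7 rose (4 without RGRN-305 mouse 8) and the median was -0.05. Among all genes 19.4% fell and 18.6% rose. Krt77, a keratin of eccrine ducts and of mouse suprabasal skin, rose widely scattered, at 23.2 to 241 CPM (median 53.8) against 4.29 to 37.9 CPM (median 16.5) with MC903 and 24.6 to 72.7 CPM (median 34.4) with vehicle (log2FC 2.41 ± 0.51 (SE), edgeR adjusted p = 0.000659).

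The filaggrin family, whose products fill the cornified cell and hold water in the skin, had members that rose. Flg2 was at 825 to 1651 CPM (median 1222), against 186 to 507 CPM (median 373) with MC903 and 1410 to 2104 CPM (median 1962) with vehicle (log2FC 1.77 ± 0.19 (SE), edgeR adjusted p = 1.63e-07). Flg, filaggrin itself, was at 3638 to 8770 CPM (median 5157), against 2683 to 3675 CPM (median 3147) with MC903 and 519 to 1260 CPM (median 944) with vehicle (log2FC 0.77 ± 0.18 (SE), edgeR adjusted p = 0.00111). Hrnr, hornerin, was at 3656 to 6611 CPM (median 4953), against 1947 to 3949 CPM (median 3628) with MC903 and 1548 to 2078 CPM (median 1786) with vehicle (log2FC 0.71 ± 0.14 (SE), edgeR adjusted p = 0.000171). Flg2 had been lowered by MC903 and came back part of the way, whereas Flg had been raised by MC903 and was raised further. Ivl, involucrin of the envelope, was at 69.9 to 133 CPM (median 113), against 40.3 to 79.7 CPM (median 57.7) with MC903 and 46 to 69.3 CPM (median 58.5) with vehicle (log2FC 0.84 ± 0.14 (SE), edgeR adjusted p = 1.94e-05). Sbsn (log2FC 0.44) and Dmkn (log2FC 0.39), secreted proteins of the upper epidermis, rose without overlap. Over the whole list of cornification and filaggrin family genes 8 of 20 rose and 5 fell (median 0.26).

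The 15 largest rises among DEGs without overlap, at the same minimum of 2 log2 CPM, were mostly genes that MC903 had lowered. Serpina3b, a protease inhibitor, was at 13.5 to 37.9 CPM (median 21.3), against 1.55 to 6.38 CPM (median 4.19) with MC903 and 79.6 to 142 CPM (median 91.8) with vehicle (log2FC 2.31 ± 0.26 (SE), edgeR adjusted p = 3.13e-07). Tmem229a, a membrane protein of unclear role, was at 43.4 to 86.8 CPM (median 62.6), against 9.2 to 20.9 CPM (median 15.4) with MC903 and 31 to 38 CPM (median 34.1) with vehicle (log2FC 2.03 ± 0.17 (SE), edgeR adjusted p = 5.97e-09). It thus passed its vehicle level. Cbs, which makes cystathionine from homocysteine, was at 19.7 to 48.4 CPM (median 34.7), against 3.14 to 13.3 CPM (median 9.43) with MC903 and 25.4 to 36.1 CPM (median 31.5) with vehicle (log2FC 1.90 ± 0.24 (SE), edgeR adjusted p = 1.77e-06). Gldc, of the glycine cleavage system, was at 5.41 to 14.5 CPM (median 9.69), against 1.47 to 4.1 CPM (median 2.92) with MC903 and 10.2 to 14.8 CPM (median 13.7) with vehicle (log2FC 1.88 ± 0.18 (SE), edgeR adjusted p = 1.02e-08). Chst3, a chondroitin sulfotransferase, was at 6.44 to 21.4 CPM (median 13.5), against 1.83 to 6.04 CPM (median 4.43) with MC903 and 16.5 to 24.2 CPM (median 22) with vehicle (log2FC 1.73 ± 0.23 (SE), edgeR adjusted p = 1.94e-06). Gsta3, a glutathione transferase, was at 5.03 to 7.21 CPM (median 6.26), against 0.628 to 2.77 CPM (median 1.66) with MC903 and 11.8 to 15.6 CPM (median 13.4) with vehicle (log2FC 1.89 ± 0.17 (SE), edgeR adjusted p = 4.65e-09). With the drug, Cbs and Gldc had ranges that met those of vehicle ears, Chst3 met theirs only in part and Gsta3 stayed below. The NRF2 antioxidant list to which Gsta3 belongs was divided, with 8 of 23 genes higher and 5 lower (median 0.03). MC903 mouse 7 was the lowest of its group for Serpina3b (1.55 CPM), whose call was kept without it.

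Pigment cell genes rose together. Of 10 melanocyte markers 9 rose, none fell and the median was 1.08, and 5 rose without overlap (Tyrp1, Trpm1, Oca2, Pmel and Tyr). Tyrp1, an enzyme of melanin synthesis (chr4:80752360-80769956, plus strand), was at 58 to 142 CPM (median 83.8), against 26 to 41.1 CPM (median 36.4) with MC903 and 54.3 to 92.7 CPM (median 64.8) with vehicle (log2FC 1.30 ± 0.20 (SE), edgeR adjusted p = 1.33e-05). Pmel, the fibril protein of melanosomes, was at 38.7 to 116 CPM (median 68.6), against 21.6 to 35.7 CPM (median 31.6) with MC903 and 34.4 to 55.9 CPM (median 42.8) with vehicle (log2FC 1.19 ± 0.21 (SE), edgeR adjusted p = 8.91e-05). Trpm1, a channel of melanocytes, was at 9.97 to 31.2 CPM (median 16.3), against 4.79 to 8.42 CPM (median 7.09) with MC903 and 7.46 to 9.95 CPM (median 8.92) with vehicle (log2FC 1.29 ± 0.21 (SE), edgeR adjusted p = 3.11e-05). Dct, of the same pathway, was at 69.3 to 186 CPM (median 120), against 59.9 to 73.1 CPM (median 63) with MC903 and 44.4 to 74.6 CPM (median 54.1) with vehicle (log2FC 0.92 ± 0.19 (SE), edgeR adjusted p = 0.00036). Against vehicle ears 5 of the 10 were higher and 2 lower. Mitf, the factor that governs the lineage, rose less (log2FC 0.37, edgeR adjusted p = 0.00736). Sox10, shared with Schwann cells, did not pass the test (log2FC 0.38, edgeR adjusted p = 0.0907) except without RGRN-305 mouse 6 (edgeR adjusted p = 0.044). The strain is albino, so the tyrosinase RNA counted here makes no active enzyme. Summed over the list the level was 218 to 568 CPM with RGRN-305, 145 to 196 CPM with MC903 and 196 to 300 CPM with vehicle, so every drug mouse was above every MC903 mouse. Hair keratins and keratin-associated proteins had a higher median (1.39), but 1 of 29 rose, 2 fell (4 without RGRN-305 mouse 8) and the rest did not pass the test.

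**Figure D3:**
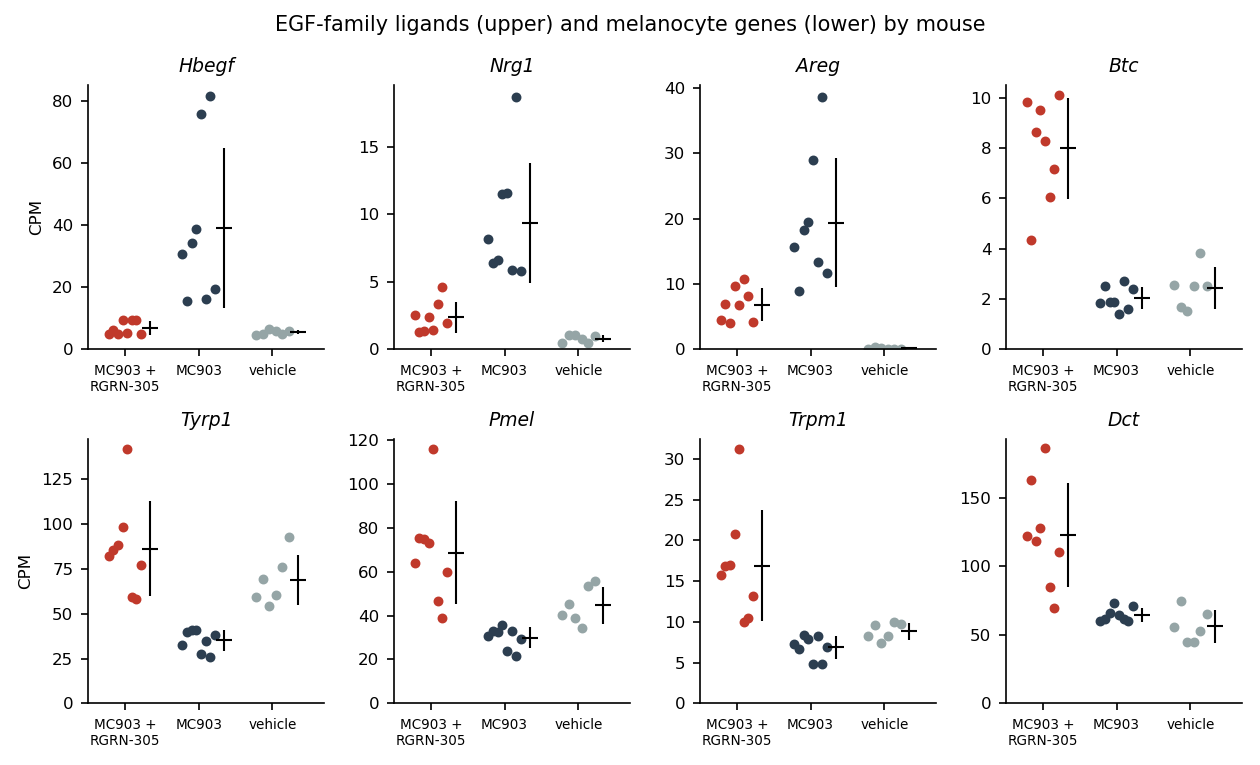
Ligands of the EGF receptor family (upper row) and melanocyte genes (lower row) in each mouse, as CPM from 0, with RGRN-305, MC903 and vehicle mice from left to right. Points are mice and the cross is the mean ± SD. Hbegf, Nrg1 and Areg are highest with MC903 alone, Btc is highest with RGRN-305, and the 4 melanocyte genes are highest and most scattered with RGRN-305.

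Lipid genes of sebaceous glands and fat rose towards vehicle. Of 16 sebaceous gland genes 10 rose, none fell and 7 rose without overlap (median 0.48). Acsbg1, an acyl-CoA synthetase, was at 370 to 536 CPM (median 431), against 168 to 295 CPM (median 267) with MC903 and 450 to 541 CPM (median 500) with vehicle (log2FC 0.80 ± 0.10 (SE), edgeR adjusted p = 3.98e-07). Scd1, a fatty acid desaturase, was at 2361 to 3306 CPM (median 2700), against 1622 to 2125 CPM (median 1851) with MC903 and 4744 to 5756 CPM (median 5236) with vehicle (log2FC 0.57 ± 0.08 (SE), edgeR adjusted p = 3.66e-06). Awat2, a wax synthase, was at 11.6 to 19.2 CPM (median 14), against 5.87 to 10.5 CPM (median 7.09) with MC903 and 5.14 to 9.43 CPM (median 6.55) with vehicle (log2FC 0.93 ± 0.14 (SE), edgeR adjusted p = 4.81e-06). Awat2 thus rose above vehicle. Of 24 adipocyte and lipogenesis genes 18 rose and 1 fell (median 0.56), and the lists share Scd1, Cidea and Pparg. Cholesterol synthesis had 11 of 22 higher and 2 lower at small steps (median 0.17). Tm7sf2 (log2FC 0.61), Mvd (log2FC 0.43) and Dhcr7 (log2FC 0.30), enzymes of the pathway, were among those with the smallest p, and without a filter on low counts 7 of the list were higher. The number was 7 without RGRN-305 mouse 3 or 5 and 6 without MC903 mouse 3, 5 or 6.

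Of 19 clock genes 10 rose and 3 fell (median 0.29), and 16 of the 19 had been lower in MC903 than in vehicle ears. Cry2, a repressor of the clock, was at 47.7 to 86.7 CPM (median 57.9), against 23.1 to 44.4 CPM (median 36.5) with MC903 and 85.6 to 97.7 CPM (median 91.5) with vehicle (log2FC 0.75 ± 0.14 (SE), edgeR adjusted p = 0.000147). Per1, which glucocorticoids also induce, was at 27.7 to 139 CPM (median 50.8), against 17.5 to 35.9 CPM (median 28.5) with MC903 and 70.5 to 96 CPM (median 80.4) with vehicle (log2FC 1.19 ± 0.25 (SE), edgeR adjusted p = 0.000597). Bhlhe40, a repressor induced in activated cells, fell (log2FC -0.90, edgeR adjusted p = 3.85e-05). The hour of the biopsies is not given in the sources used here, and whether it differed between groups was not tested.

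Skeletal muscle markers rose in 15 of 22 with none lower (median 0.87). Their summed level was 670 to 2408 CPM with RGRN-305, 543 to 1297 CPM with MC903 and 3474 to 7547 CPM with vehicle, and all 22 were lower in MC903 than in vehicle ears. Tnni1, a slow-muscle troponin, was the single member without overlap, at 10.9 to 22.8 CPM (median 16) against 4.95 to 9.99 CPM (median 8.2) with MC903 and 10.7 to 21.5 CPM (median 15.8) with vehicle (log2FC 1.04 ± 0.17 (SE), edgeR adjusted p = 1.51e-05). Atp2a1, the calcium pump of fast muscle, was at 62.7 to 250 CPM (median 180), against 42 to 96.4 CPM (median 79.6) with MC903 and 393 to 1036 CPM (median 754) with vehicle (log2FC 1.13 ± 0.25 (SE), edgeR adjusted p = 0.000797). How much muscle each biopsy held was not measured. Of 14 fibroblast markers 5 fell and 1 rose (median -0.09), and of 26 ribosomal protein genes 10 rose and none fell (median 0.20).

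Genes that moved against the return towards vehicle are of 2 kinds, those moved further in the direction of MC903 and those that MC903 had not changed past the test. The 297 genes higher in both comparisons held 9 DEGs of RGRN-305 against MC903. Tslp, which encodes thymic stromal lymphopoietin, the starter of type 2 inflammation in this model, was at 36.7 to 155 CPM (median 112), against 28.9 to 50.7 CPM (median 38.7) with MC903 and 2.09 to 3.39 CPM (median 2.51) with vehicle (log2FC 1.43 ± 0.21 (SE), edgeR adjusted p = 1.28e-05). The lowest drug mouse lay inside the MC903 range and the other 7 lay above it, and Tslp thus moved opposite to Il33, Il1rl1 and Il7r. Ccl20, the ligand of CCR6 on Th17 cells and dendritic cells (chr1:83094487-83096888, plus strand), was at 4.53 to 20.1 CPM (median 12.8), against 1.7 to 5.5 CPM (median 3.6) with MC903 and 0.0744 to 1.01 CPM (median 0.586) with vehicle (log2FC 1.89 ± 0.34 (SE), edgeR adjusted p = 9.05e-05). Ccl17, a ligand of CCR4 and a blood marker of atopic dermatitis, was at 1.87 to 7.35 CPM (median 4), against 1.78 to 2.77 CPM (median 1.99) with MC903 and 0.28 to 0.716 CPM (median 0.359) with vehicle (log2FC 0.94 ± 0.23 (SE), edgeR adjusted p = 0.00156). Ccl22, the other ligand of CCR4, was at 10.2 to 16.2 CPM (median 14), against 8.59 to 12.8 CPM (median 10.1) with MC903 and 3.04 to 5.53 CPM (median 4.13) with vehicle (log2FC 0.43 ± 0.12 (SE), edgeR adjusted p = 0.00673). The 3 chemokines overlapped between the drug and MC903 mice.

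Among these genes averaging 2 log2 CPM or more in 1 group, the largest rise was that of Myl7, a myosin light chain of heart atria (chr11:5845449-5848792, minus strand), at 2.34 to 7.56 CPM (median 4.06) against 0.633 to 1.16 CPM (median 0.956) with MC903 and 0 to 0.0509 CPM (median 0.0165) with vehicle (log2FC 2.25 ± 0.23 (SE), edgeR adjusted p = 2.74e-08). Cyp2g1, a cytochrome P450 of olfactory and sebaceous tissue, was at 10.9 to 36.7 CPM (median 19.5), against 2.67 to 7.81 CPM (median 4.01) with MC903 and 0.237 to 1.92 CPM (median 1.06) with vehicle (log2FC 2.13 ± 0.32 (SE), edgeR adjusted p = 1.14e-05). Slc4a9, an anion exchanger, was at 4.18 to 10.6 CPM (median 8.63), against 1.26 to 3.3 CPM (median 2.48) with MC903 and 0.592 to 1.2 CPM (median 0.916) with vehicle (log2FC 1.73 ± 0.20 (SE), edgeR adjusted p = 1.63e-07). Slc39a8, the zinc and manganese importer ZIP8, was at 18.2 to 35.4 CPM (median 26.2), against 8.44 to 13.6 CPM (median 11.5) with MC903 and 4.73 to 8.21 CPM (median 5.26) with vehicle (log2FC 1.29 ± 0.14 (SE), edgeR adjusted p = 3.95e-08). Alox12e, the epidermal lipoxygenase of mice, was at 575 to 1085 CPM (median 739), against 143 to 447 CPM (median 369) with MC903 and 136 to 203 CPM (median 181) with vehicle (log2FC 1.18 ± 0.19 (SE), edgeR adjusted p = 3.63e-05). In these 5 genes every drug mouse was above every MC903 mouse. Zfp365 (log2FC 1.30) and Prr15l (log2FC 1.02) rose without overlap as well, whereas Pnma6e (log2FC 1.07) and Nmu (log2FC 0.79), a neuropeptide that stimulates type 2 innate lymphoid cells, overlapped. Nmu no longer passed without RGRN-305 mouse 5 (edgeR adjusted p = 0.075), RGRN-305 mouse 6 (0.0655) or MC903 mouse 6 (0.0544).

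**Figure D4:**
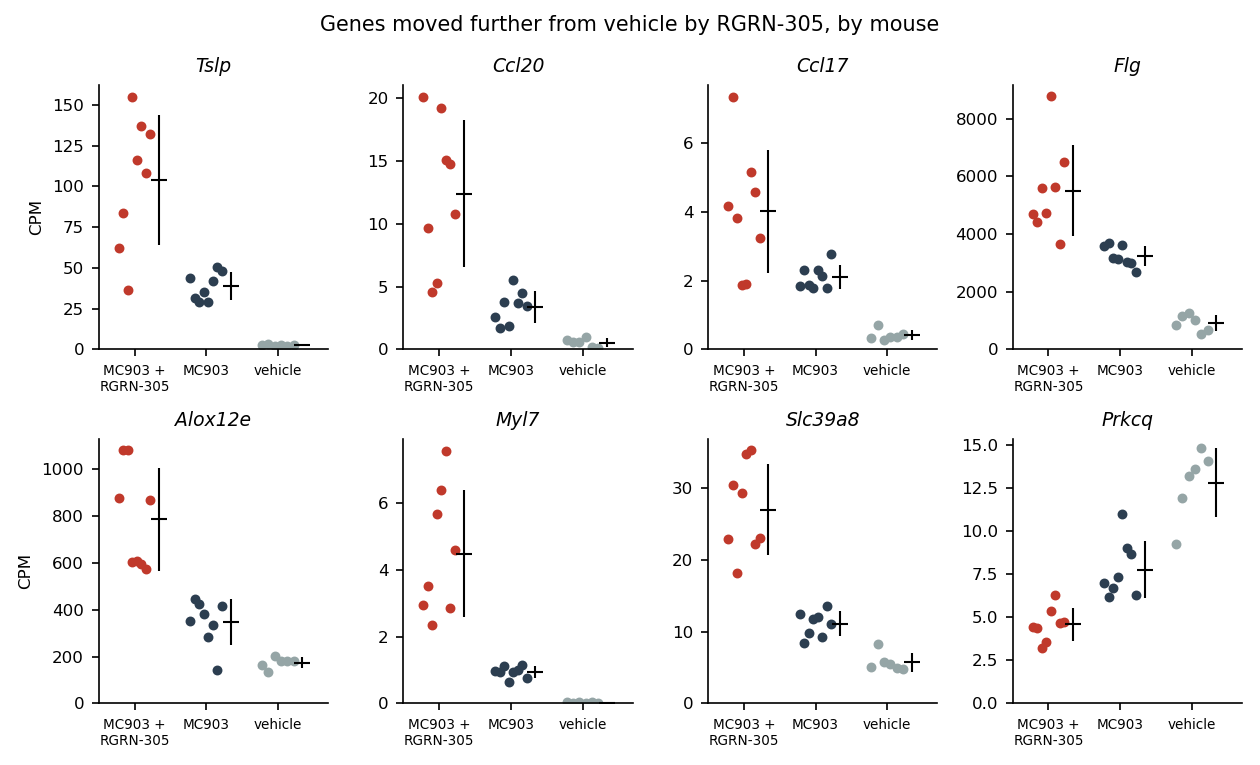
Genes that RGRN-305 moved further from vehicle than MC903 had, in each mouse, as CPM from 0, with RGRN-305, MC903 and vehicle mice from left to right. Points are mice and the cross is the mean ± SD. The first 7 genes are highest with RGRN-305, with Tslp and Ccl20 spread over most of the range between MC903 and their highest mouse, and Prkcq is lowest with RGRN-305.

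The 186 genes lower in both comparisons changed less and held 2 DEGs. Krt24, a keratin of differentiated epithelium, had the largest fall among those above the level set for naming, at 28.3 to 108 CPM (median 64.4) against 43.4 to 210 CPM (median 152) with MC903 and 115 to 393 CPM (median 272) with vehicle (log2FC -1.20 ± 0.33 (SE), edgeR adjusted p = 0.00571). Prkcq, a protein kinase C of T cells and muscle, was at 3.23 to 6.31 CPM (median 4.56), against 6.18 to 11 CPM (median 7.16) with MC903 and 9.23 to 14.8 CPM (median 13.4) with vehicle (log2FC -0.76 ± 0.14 (SE), edgeR adjusted p = 5.95e-05). Xylt1, which starts the sugar chains of proteoglycans, was at 17.7 to 24.7 CPM (median 19.7), against 29.4 to 40.9 CPM (median 32.4) with MC903 and 31.9 to 48.5 CPM (median 39.6) with vehicle (log2FC -0.70 ± 0.09 (SE), edgeR adjusted p = 1.52e-06). Calcb, the neuropeptide CGRP-beta, was at 2.3 to 4.93 CPM (median 3.98), against 2.24 to 8.8 CPM (median 7.11) with MC903 and 8.85 to 11.4 CPM (median 10.1) with vehicle (log2FC -0.75 ± 0.21 (SE), edgeR adjusted p = 0.00582). Of these 4 only Xylt1 was free of overlap. Itpr1 (log2FC -0.65), Ppp2r2c (log2FC -0.77), Rasa4 (log2FC -0.68), Sh2d3c (log2FC -0.66) and Rhpn2 (log2FC -0.67), genes of calcium, phosphatase and small GTPase signalling, fell as well. Tmem184b (log2FC -0.68), Fam221a (log2FC -0.65) and the non-coding Mir100hg (log2FC -0.65) made up the rest of the 12 largest above that level.

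The 487 genes that fell without a passing change by MC903 held 12 DEGs, and 319 of them ended below their vehicle level. Duox1, the hydrogen peroxide-making oxidase of epithelium, was at 7.54 to 11.6 CPM (median 9.09), against 15 to 41.3 CPM (median 22.1) with MC903 and 15.8 to 21.3 CPM (median 19.2) with vehicle (log2FC -1.31 ± 0.15 (SE), edgeR adjusted p = 1.47e-07). Atp12a, a proton pump of skin and other epithelia, was at 1.11 to 4.85 CPM (median 3.56), against 3.68 to 14 CPM (median 8.44) with MC903 and 6.15 to 8.14 CPM (median 6.56) with vehicle (log2FC -1.40 ± 0.28 (SE), edgeR adjusted p = 0.000284). The next 4 belong to leukocytes. Ighm, the heavy chain of IgM, was at 2.75 to 5.27 CPM (median 3.53), against 6.29 to 12.5 CPM (median 9.14) with MC903 and 6.38 to 10.2 CPM (median 7.04) with vehicle (log2FC -1.34 ± 0.21 (SE), edgeR adjusted p = 1.43e-05). Cmklr1, the chemerin receptor of macrophages and dendritic cells, was at 5.22 to 8.94 CPM (median 7.18), against 11.4 to 22.3 CPM (median 16.6) with MC903 and 11.1 to 18.8 CPM (median 12.6) with vehicle (log2FC -1.18 ± 0.14 (SE), edgeR adjusted p = 1.59e-07). Cd28, the co-stimulatory receptor of T cells, was at 1.08 to 2.51 CPM (median 2.18), against 3.04 to 6.02 CPM (median 4.33) with MC903 and 3.45 to 4.99 CPM (median 3.77) with vehicle (log2FC -1.15 ± 0.18 (SE), edgeR adjusted p = 1.02e-05). Gimap4, a GTPase of lymphocytes, was at 2.01 to 3.42 CPM (median 2.44), against 3.56 to 6.49 CPM (median 5.36) with MC903 and 3.52 to 5.96 CPM (median 4.7) with vehicle (log2FC -1.03 ± 0.18 (SE), edgeR adjusted p = 3.41e-05). In these 4 genes every drug mouse was below every MC903 and every vehicle mouse. Itgb3 (log2FC -1.01), Gpr34 (log2FC -0.99), Tspan13 (log2FC -1.03) and Rnase2b (log2FC -0.99) completed the 10 largest falls among those averaging 2 log2 CPM or more in 1 group, a level that none of the 12 DEGs reached.

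The 705 genes that rose without a passing change by MC903 held 24 DEGs, and 470 of them ended above their vehicle level. Btc (above) had the largest rise among those averaging 2 log2 CPM or more in 1 group. Ptger1, a prostaglandin E2 receptor, was at 7.95 to 12.6 CPM (median 9.92), against 2.86 to 5.66 CPM (median 4.37) with MC903 and 4.67 to 6.14 CPM (median 5.23) with vehicle (log2FC 1.26 ± 0.13 (SE), edgeR adjusted p = 2.36e-08). Lipk, a lipase of the outer epidermis, was at 43.1 to 56.2 CPM (median 47.3), against 17.6 to 31.1 CPM (median 24.9) with MC903 and 24.8 to 30.4 CPM (median 28.2) with vehicle (log2FC 0.94 ± 0.11 (SE), edgeR adjusted p = 1.03e-07). Ydjc, a deacetylase of sugars, was at 8.89 to 12.1 CPM (median 10.4), against 3.4 to 7.29 CPM (median 5.16) with MC903 and 4.83 to 6.32 CPM (median 5) with vehicle (log2FC 0.93 ± 0.13 (SE), edgeR adjusted p = 1.8e-06). In these 3 genes MC903 and vehicle mice shared a range that every drug mouse exceeded. Sgsm1 (log2FC 1.57), Dusp4 (log2FC 1.02), a phosphatase of MAP kinases, and Fmo2 (log2FC 0.97), a monooxygenase, rose with overlap, and Trpm1, Awat2 and Dct (above) are also among the 10 largest above that level.

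The drug mice did not respond to the same degree. Values here are the median over a list of log2 CPM minus the mean of the MC903 mice. The guanylate-binding and immunity-related GTPases were at -0.81 in RGRN-305 mouse 6 and -1.31 in mouse 7, and between -1.84 and -2.67 in the other 6 mice. The neutrophil markers lay at -0.51 in mouse 6 and -0.72 in mouse 7, and between -1.24 and -2.22 in the others. Mouse 6 was thus the least lowered for these lists, and also for MHC class I and immunoproteasome genes (-0.70) and T cell markers (-0.57). The melanocyte markers were raised least in the same 2 mice (0.48 and 0.32), against 0.96 to 1.85 in the others. The unfolded protein response list did not follow this order, at -0.38 in mouse 6 and -0.60 in mouse 7 within a range of -0.76 to -0.26. The skeletal muscle markers were lowest in mouse 4 (-0.30) and highest in mouse 2 (1.45). The small heat shock proteins and BAG3 were lowest in mouse 4 (-0.27) and highest in mouse 2 (1.15) as well. Genes induced by interferon differed in this. When each mouse was left out in turn, the falls of Rsad2 (log2FC -5.01), Mx1 (-4.52), Isg15 (-3.20), Ifi44 (-4.39) and Ifit1bl1 (-4.80) were largest without RGRN-305 mouse 5. That of Oas3 (-4.03) was largest without mouse 6 and that of Slfn4 (-4.20) without mouse 7. Without RGRN-305 mouse 6 there were 119 higher and 693 lower DEGs.

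**Figure D5:**
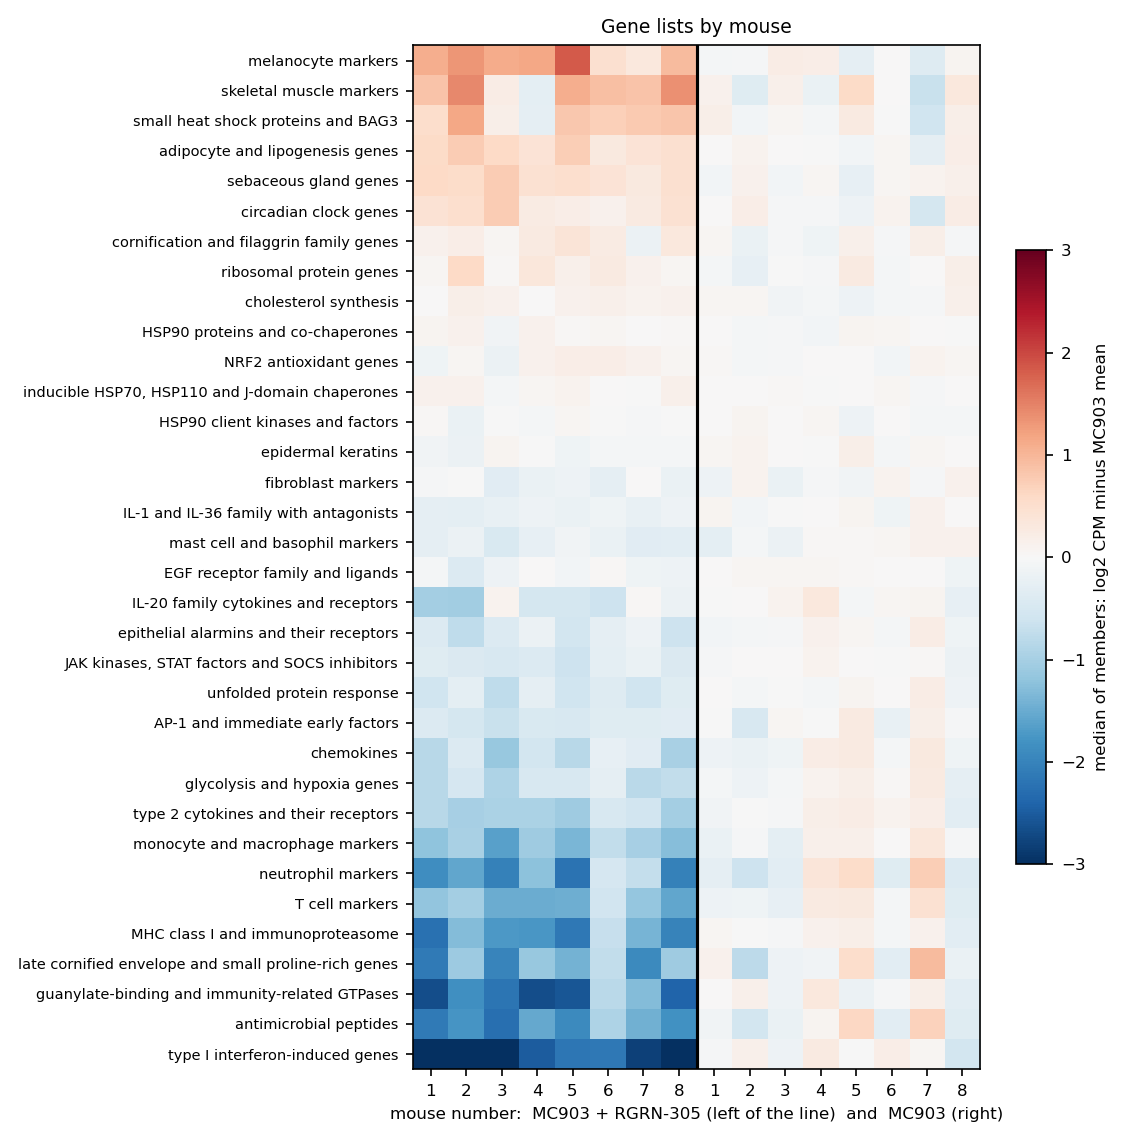
Median over the members of each gene list of log2 CPM minus the mean of the 8 MC903 mice, for RGRN-305 mice 1 to 8 (left of the line) and MC903 mice 1 to 8 (right). Red is higher and blue is lower, and cells at or beyond -3 share the darkest blue. Blue cells fill the immune and interferon lists in all drug mice, and the melanocyte row is red in all drug mice.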

How the data were processed

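RNA was measured in 26 ear biopsies by paired-end sequencing with a directional total RNA kit. The authors aligned the reads to GRCm39, and the deposited table holds raw counts of reads per gene, made with Subread 2.10.3 from uniquely aligned, unambiguous reads. The strand setting of the counting is not given in the sources used here, so overlapping genes on opposite strands are uncertain. Of the 57010 genes it holds, 17061 were 0 in every library, and counts of identifiers without a symbol made up 0.0631%.

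Counts were filtered with filterByExpr (minimum count 10, minimum total 15), scaled by TMM and fitted with edgeR 4.0.16 (quasi-likelihood, robust) in R 4.3.3, with 1 mean per group over all 26 libraries, the dexamethasone mice included. RGRN-305 was tested against MC903 and p-values were adjusted over 20167 genes by Benjamini and Hochberg. The DEG threshold of the study was kept (adjusted p under 0.05, log2 fold change beyond 1.5 in size). The code was tested on simulated data. Replicates are separate mice. Same-numbered mice of the 2 groups did not deviate together (correlations -0.30 to 0.19, 0 of 8 highest with the own number), so no block was used. Alternatives were DESeq2 1.42.0, its size factors, no filter, only the 16 libraries, glmTreat, a log2 threshold of 1, the mouse number as a block and leaving out each mouse in turn.

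Genes were named by rule: the 15 largest falls and rises among DEGs with no overlap between the 8 and 8 mice and a mean of at least 2 log2 CPM, up to 4 members of each of 75 gene lists with the smallest p, the 12 largest changes in each direction that MC903 had made too, the 10 largest in each direction without a passing change by MC903, and Hspa1a, Hspb1, Tslp and Cyp24a1. Other genes named, such as Hspa1b, Hspa8, Hspa5, Manf, Dnajb1, Bag3, Areg, Vegfa, Isg15, Krt6a, Krt77, Flg's relative Hrnr, Ivl, Ccl17, Ccl22, Ccr4, Mcpt4, Mcpt8, Cry2 and the remaining members of lists given by a value, were chosen after their values were seen. Some named genes are not reported here. The members and lists were chosen with earlier results of these data known. Of 1329 listed symbols 1252 were tested. Symbols (found for 56310 identifiers), positions and canonical starts were taken from GENCODE vM39, and promoter sequences were read from the GRCm39 genome.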

Additional observations from a re-analysis of the deposited data

Results flagged for a closer look

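Of 540 groups of 6 or 8 mice (180 genes in 3 groups), 39 (7.22%) held 1 mouse that stood far from the rest by Dixon's test, where chance gives about 1 in 20. The range of the other mice of the same group is in brackets, and no cause was tested.

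Among RGRN-305 mice, mouse 2 was low for Jak1 (187 CPM [203 to 214]), Egfr (71.8 CPM [90.3 to 106]) and Pnma6e (1.56 CPM [4.32 to 8.48]). Mouse 7 was low for Dnaja4 (52.9 CPM [64.9 to 77.8]) and still above every MC903 mouse, and mouse 6 was high for Prss34 (0.172 CPM [0 to 0.0503]).

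MC903 mouse 7 was the most frequent of its group. It was high for Hsp90b1 (721 CPM [469 to 543]), Hspa5 (811 CPM [549 to 642]) and Cyp24a1 (2780 CPM [1973 to 2302]). It was low for Hspb6 (14.4 CPM [22.5 to 28.4]), Egf (0.773 CPM [1.38 to 2.29]), Il1f10 (1.93 CPM [3.98 to 4.53]), Serpina3b (1.55 CPM [3.52 to 6.38]) and Alox12e (143 CPM [282 to 447]). MC903 mouse 8 was low for Slc2a1 (84.9 CPM [131 to 179]), Oas3 (58.9 CPM [90.8 to 121]) and Ifi44 (86.8 CPM [133 to 179]), and high for the mast cell proteases Mcpt4 (51.8 CPM [24.4 to 34.2]) and Cma1 (37.8 CPM [20.8 to 27.5]). MC903 mouse 5 was low for Gpr37 (0.681 CPM [1.16 to 1.76]).

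Vehicle mouse 2 was low for Dnajc3 (71.3 CPM [83.1 to 90.2]), Jak2 (36.7 CPM [45.6 to 46.7]), Ccr4 (5.28 CPM [7.05 to 7.99]), Slfn4 (0.586 CPM [1.12 to 1.58]), Cyp2w1 (2.34 CPM [7.41 to 10.7]), Flg2 (1410 CPM [1945 to 2104]), Chst3 (16.5 CPM [21.5 to 24.2]) and Pnma6e (0.13 CPM [0.326 to 0.458]), and high for Il36g (54.4 CPM [38.5 to 43.5]), Uox (0.13 CPM [0 to 0.0331]) and Atp12a (8.14 CPM [6.15 to 6.74]). Vehicle mouse 3 was low for Lck (0.56 CPM [0.993 to 1.23]). Vehicle mouse 4 was high for Saa3 (0.0362 CPM) and Cyp24a1 (0.687 CPM), where the other vehicle mice were at 0. Vehicle mouse 5 was low for Nmu (0 CPM [0.331 to 0.615]) and Rnase2b (10.1 CPM [18.2 to 22.6]) and high for Sh2d3c (12.4 CPM [7.18 to 8.67]) and Ighm (10.2 CPM [6.38 to 7.48]). Vehicle mouse 6 was high for Il19 (0.0744 CPM, the others at 0) and Mcpt8 (0.149 CPM [0 to 0.0331]). The vehicle mice enter the values of RGRN-305 over MC903 only through the filter on low counts, the scaling of the libraries and the shared spread.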

How the results depend on the processing

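The number of DEGs depended on the threshold and tool more than the number of genes past the test. Higher DEGs numbered 113, against 190 with DESeq2, 240 with no filter on low counts, 59 with the 16 libraries alone, 4 with glmTreat, which tests against the threshold itself, and 398 at an absolute log2 fold change above 1. Lower DEGs numbered 629, against 900 with DESeq2, 1274 with no filter, 519 with the 16 libraries alone, 120 with glmTreat and 1181 at the threshold of 1. With the mouse number as a replicate block 3425 genes were higher and 3759 lower, with 110 and 634 DEGs, and of the 180 genes followed the block ended the call of Nmu alone (log2 fold change 0.73, edgeR adjusted p = 0.0626). Leaving out each mouse of the 2 groups in turn gave 3319 to 3785 higher and 3556 to 3980 lower genes, 99 to 128 higher and 540 to 693 lower DEGs, 229 to 299 genes higher in both comparisons and 157 to 202 lower in both. Of these 180 genes 179 kept their call with DESeq2 and with its size factors, where Ern1 passed (adjusted p = 0.0474 and 0.0462), and 179 with no filter and with the 16 libraries, where Bag3 no longer passed (0.11 and 0.078). None of the 180 turned its direction while called. Without a filter 7 of the cholesterol genes were higher, against 11. In lists with only 1 or 2 members called in a direction, leaving out a single mouse moved that count by at most 2.

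The comparison covers 1 dose, 1 time point and whole ear skin, so changes per cell were not measured. RNA does not show client protein levels. Near-identical genes (Hspa1a and Hspa1b, the Sprr2a copies) share reads that were not counted.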

Other observations

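Further gene lists are given here beside the 18.6% of all genes that rose and the 19.4% that fell. Values here are means ± SD over 8, 8 and 6 mice. Of 19 p53 target genes 8 rose and 3 fell (median 0.12), and 4 rose without overlap. Bbc3, which encodes the cell death protein PUMA, was 13.5 ± 1.8 CPM with RGRN-305, 7.66 ± 0.801 CPM with MC903 and 10.6 ± 1.44 CPM with vehicle (log2FC 0.82, edgeR adjusted p = 1.12e-07). Eda2r, a death domain receptor, was 4.38 ± 1.24 CPM with RGRN-305, 1.86 ± 0.409 CPM with MC903 and 4.02 ± 1.09 CPM with vehicle (log2FC 1.25, edgeR adjusted p = 5.96e-06). Zmat3, an RNA-binding p53 target, was 60.3 ± 5.45 CPM with RGRN-305, 43.9 ± 4.08 CPM with MC903 and 52.6 ± 3.24 CPM with vehicle (log2FC 0.46, edgeR adjusted p = 1.55e-06). For Bbc3 and Zmat3 this was above vehicle, while the cell cycle list fell in 12 of 24 with 1 higher (median -0.29). Wnt ligands and modulators rose in 7 of 24 and fell in 3, or 5 without MC903 mouse 8 (median 0.15), and Wnt10b, a ligand of hair follicle growth, was 2.88 ± 1.24 CPM with RGRN-305, 0.844 ± 0.208 CPM with MC903 and 10.2 ± 1.22 CPM with vehicle (log2FC 1.74, edgeR adjusted p = 7.92e-07). The aryl hydrocarbon receptor axis had 4 of 9 higher and 3 lower (median 0.13), with Aldh3a1, an aldehyde dehydrogenase, at 95.6 ± 15.8 CPM with RGRN-305, 45.1 ± 10.4 CPM with MC903 and 124 ± 12.8 CPM with vehicle (log2FC 1.08, edgeR adjusted p = 4.01e-07).

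Matrix remodelling genes fell in 15 of 27 and rose in 2 (median -0.30), and Timp1, an inhibitor of matrix metalloproteases, was 20.2 ± 8.57 CPM with RGRN-305, 76.3 ± 28.4 CPM with MC903 and 2.97 ± 0.824 CPM with vehicle (log2FC -1.91, edgeR adjusted p = 0.000135). Of 17 collagen chains 4 fell and 1 rose (median -0.14). Antimicrobial peptides fell in 15 of 17 with none higher (median -1.97), among them Wfdc12, a protease inhibitor of skin, at 35.5 ± 19.1 CPM with RGRN-305, 306 ± 97.2 CPM with MC903 and 1.4 ± 0.388 CPM with vehicle (log2FC -3.11, edgeR adjusted p = 4.76e-08). Gjb2, the gap junction protein connexin 26 of thickened epidermis, was 114 ± 46.1 CPM with RGRN-305, 483 ± 188 CPM with MC903 and 22.9 ± 8.39 CPM with vehicle (log2FC -2.08, edgeR adjusted p = 1.22e-06). Eosinophil markers, at low counts, were lower in 3 of 5, with Ccr3 at 0.196 ± 0.0859 CPM with RGRN-305, 1.05 ± 0.554 CPM with MC903 and 0.106 ± 0.0804 CPM with vehicle (log2FC -2.38, edgeR adjusted p = 6.75e-06), while Ear2, an eosinophil-associated ribonuclease also made by macrophages, was higher at 3.66 ± 1.62 CPM with RGRN-305, 1.34 ± 0.566 CPM with MC903 and 1.61 ± 0.524 CPM with vehicle (log2FC 1.41, edgeR adjusted p = 0.000208). Nppb, a peptide that sensory neurons use to signal itch, was 0.716 ± 0.426 CPM with RGRN-305, 3.25 ± 1.51 CPM with MC903 and 0.0905 ± 0.0943 CPM with vehicle (log2FC -2.14, edgeR adjusted p = 4.93e-05), and Il31ra, a chain of the IL-31 receptor, was 0.603 ± 0.172 CPM with RGRN-305, 1.42 ± 0.422 CPM with MC903 and 0.996 ± 0.302 CPM with vehicle (log2FC -1.24, edgeR adjusted p = 0.000157). Direct targets of the glucocorticoid receptor were divided, with 6 of 17 higher and 4 lower (median 0.37). Vwf of endothelium was 17.5 ± 2.37 CPM with RGRN-305, 12.2 ± 1.58 CPM with MC903 and 27.2 ± 5.87 CPM with vehicle (log2FC 0.52, edgeR adjusted p = 0.000374), the 1 endothelial marker of 12 that rose, with 4 lower (median -0.18).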
